A study of Oncorhynchus mykiss with 6 samples.

Results

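The lysosome genes of rainbow trout (Oncorhynchus mykiss) skin are described here as the 292 rows, of 43862 gene rows in the deposited table, whose pathway column held the KEGG lysosome entry (ko04142). Of these, 272 carried an NCBI gene number and 20 were assembled loci outside the annotation. By product name they comprised 40 cathepsins and other proteases, 43 glycosidases, 12 sulfatases, 27 lipid enzymes, saposins, phosphatases and nucleases, 50 membrane proteins, 26 proton pump subunits and 91 sorting, coat and adaptor proteins, with 3 left over. The fish were yellow mutants, and dorsal skin was sampled at day 90 and at day 1 for RNA sequencing, in 3 libraries each. Every library carried the yellow phenotype, so that the comparison is between ages and no colour is compared. A further age was not analysed here, the submitters' design naming 3 developmental stages. The labels name no allele behind the yellow phenotype, do not say from which event age is counted, and do not say that the libraries of an age come from separate fish, so that p-values measure a spread between libraries that may be technical.

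The lysosome is the acidic organelle in which cells degrade proteins, glycans, lipids and nucleic acids. A proton pump, the V-type ATPase, acidifies it, soluble hydrolases reach it from the Golgi through mannose-6-phosphate receptors and sortilin, and adaptor and clathrin coats form the vesicles that carry them. Melanosomes, the pigment granules of melanophores, are lysosome-related organelles that share part of this machinery, among it the AP-3 adaptor. In skin, lysosomal genes are also strongly used by macrophages and, in the scales of fish, by the osteoclasts that resorb bone.

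The libraries held 16157312 to 18960866 counts at day 90 and 17795175 to 18395388 at day 1. Lysosome genes took 0.728% to 0.795% of the counts of a library at day 90 and 0.603% to 0.661% at day 1. Across genes, libraries of the same age correlated at 0.966 to 0.987 (Pearson's r of log values), and libraries of different ages at 0.474 to 0.546. The tissue label was checked against 43 epidermal genes (keratins, desmosomal proteins, p63 and others), whose FPKM (fragments per kilobase of gene, scaled to the mapped fragments of the library) summed to 6740 to 8350 per library at day 90 and 1780 to 1890 at day 1. Other tissues were present besides at day 1: 72 lens and retina genes summed to 12.3 to 14.3 FPKM at day 90 and 2690 to 3380 at day 1, and 32 liver and yolk genes to 129 to 146 FPKM at day 90 and 531 to 966 at day 1. None of these marker genes is a lysosome gene of the list. In whole skin, fewer cells of a type and less RNA per cell cannot be told apart, and this holds for every result below.

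Most lysosomal hydrolases were higher at day 90 than at day 1. Cathepsins B, D, K and S, hyaluronidases, prosaposin, acid ceramidase and the tetraspanin CD63 rose, while a cluster of cathepsin L genes, the leading gene of the proton pump's a1 subunit and the beta-2 subunit of AP-3 fell. The proton pump was split between higher and lower genes, and the sorting and coat proteins held genes of both directions. Counts were compared with edgeR's quasi-likelihood test over the 29436 genes that reached an FPKM of 1 in 3 or more of the 6 libraries, and a gene was called at a Benjamini-Hochberg adjusted p under 0.05. Of the lysosome genes 239 were tested and 53 were below the filter. Of the tested ones, 9 passed through day 90 libraries alone and 11 through day 1 libraries alone, so that these had to differ between the ages. Among the 11 are most of the falling cathepsin L-like genes, the a1 gene 110491694, ATP6AP1 110532877, Ap3b2 and ABCA2 110536359. The a2 genes 110523699 and 110509909 of the proton pump belong to the 11 too. Among the 9 are Hyal5 110521336, LITAF 110516790 and SCARB2 110523977.

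With the usual TMM scaling (trimmed mean of M-values), 150 of the 239 tested lysosome genes were called higher at day 90 (62.8%, against 32.5% of all tested genes), 35 lower (14.6%, against 35.4%), and 54 were not called. In either direction 77.4% were called, against 67.9% of all tested genes. Higher by at least 2-fold were 74 (31.0%, against 16.2% of all tested genes), and lower by at least 2-fold 18 (7.53%, against 22.6%). The median log2 fold change of day 90 over day 1 was 0.69 for lysosome genes and -0.03 for all tested genes. FPKM of the ages did not overlap in 169 of the 239 (70.7%, against 75.2% of all tested genes), so that separation of the ages as such was no more frequent among them. The choice of scaling matters for genes near no change: scaled by library size alone, the median of all tested genes was -0.43 and that of lysosome genes 0.30, a distance of 0.73, against 0.72 with TMM. By library size alone 106 were called higher and 54 lower, 66.9% in all against 70.8% of all tested genes. Called higher with both scalings were 106 lysosome genes (44.4%, against 20.2% of all tested genes), and called lower with both 35 (14.6%, against 35.4%). A further 44 were higher with TMM and not called by library size alone, and 19 that were not called with TMM were lower by library size alone. Counts below are with TMM, followed by the number that held with both scalings. Library size alone moves fold changes down, and all 10417 genes of the table called lower with TMM were lower with both. For lower genes the second number is therefore no further check. Members were chosen for their pathway and share cells and copies, so that these shares describe the list and are no test of it.

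**Figure D1:**
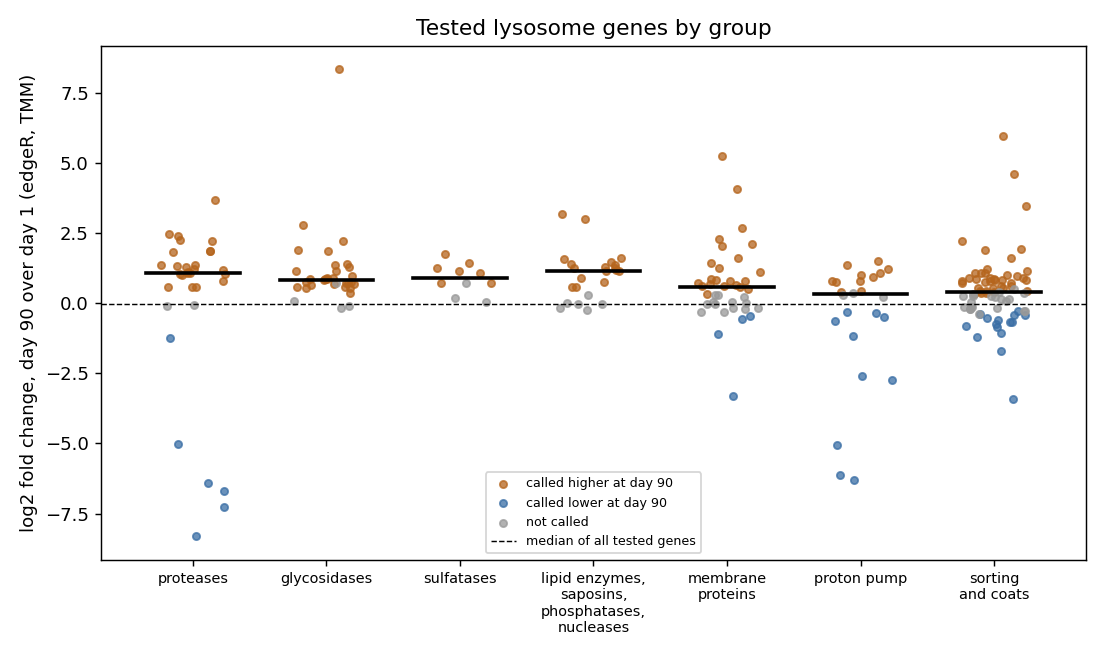
Log2 fold change of day 90 over day 1 (edgeR with TMM, vertical axis) of each tested lysosome gene, by gene group. Points are genes, coloured by call, bars are group medians and the dashed line is the median of all tested genes; glycosidases, sulfatases and lipid enzymes hold no gene called lower, and proteases and the proton pump hold genes far below the line.

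Summed over all 292 genes, the level was 3180 ± 120 FPKM at day 90 and 2530 ± 130 FPKM at day 1 (SD, n = 3 libraries each). Proteases made the largest part, with 974 ± 21 FPKM at day 90 and 732 ± 51 FPKM at day 1. Membrane proteins followed with 688 ± 39 FPKM at day 90 and 444 ± 26 FPKM at day 1. The proton pump was the group with the lower sum at day 90, 271 ± 2.8 FPKM against 362 ± 4.6 FPKM at day 1. Sorting and coat proteins had nearly the same sum at both ages, 617 ± 33 FPKM at day 90 and 587 ± 23 FPKM at day 1, with overlapping libraries. Deposited FPKM follow library size, and TMM would raise day 90 against day 1 in every group. Sums with TMM were not computed. The lower sum of the pump and the near equality of the sorting proteins therefore hold for library size alone.

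**Figure D2:**
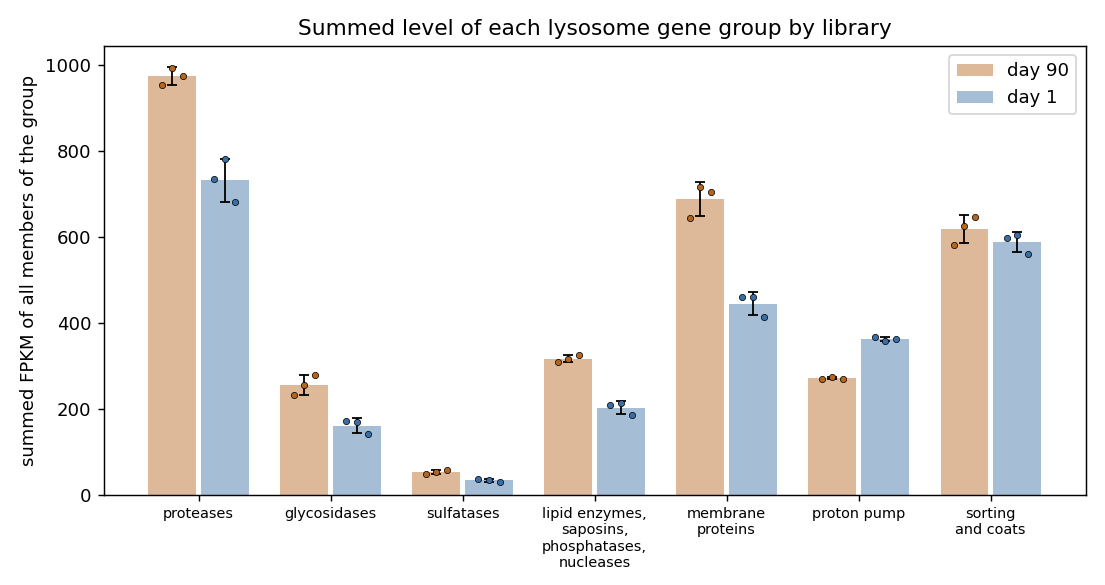
Summed deposited FPKM, scaled by library size and not by TMM, of all members of each lysosome gene group (vertical axis, from 0). Bars are means of 3 libraries with SD and points are libraries, day 90 left and day 1 right; the proton pump is the group whose day 90 libraries, 269 to 274 FPKM, all lie below its day 1 libraries, 358 to 367 FPKM.

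Cathepsins are the main proteases of the lysosome, most of them cysteine proteases, with cathepsin D an aspartic protease. Of the 40 protease genes 32 were tested, 24 called higher (21 with both scalings), 6 lower (6 with both) and 2 not called, with a median log2 fold change of 1.10. The 6 lower genes were all cathepsin L-like. Without the cathepsin L-like copies, 23 of 25 tested protease genes were higher (20 with both scalings) and none lower, and their summed level was 798 ± 9.7 FPKM at day 90 and 403 ± 39 FPKM at day 1.

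Cathepsin B, which cleaves both inside proteins and from their ends, was carried by 2 tested copies. Gene 110497560 stood at 129.6, 136.7 and 130.6 FPKM in day 90 libraries, against 30.1, 32.7 and 29.2 FPKM in day 1 libraries. All day 90 libraries lay far above all day 1 libraries, and it rose by a log2 fold change of 2.49 ± 0.12 (SE, adjusted p = 1.8e-07, edgeR). The other copy, 110505888, averaged 86.9 FPKM at day 90 and 50.5 FPKM at day 1, a log2 fold change of 1.18 ± 0.15. The leading cathepsin B copy was therefore not the same at both ages.

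Cathepsin D had 4 tested copies, all called higher and 3 of them with both scalings. The steepest was gene 110538020, at 15.3, 16.2 and 13.9 FPKM in day 90 libraries, against 1.77, 1.60 and 1.30 FPKM in day 1 libraries. The ages were well apart, with a log2 fold change of 3.67 ± 0.15 (adjusted p = 8.2e-08, edgeR). The copies 110486128 and 100136761 had log2 fold changes of 2.42 ± 0.11 and 1.87 ± 0.12. Gene 118936249, with the highest mean over all libraries, was close between the ages at 64.3, 61.9 and 58.0 FPKM at day 90, against 53.4, 57.9 and 51.2 FPKM at day 1. Its ages were separated by a narrow margin, and its log2 fold change of 0.57 ± 0.12 (adjusted p = 0.0019, edgeR) was 0.17 and not called by library size alone.

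Cathepsins S and K are the cathepsins best known from antigen-presenting cells and from bone-resorbing osteoclasts, in mammals. Cathepsin S gene 100136261 stood at 48.7, 43.5 and 54.4 FPKM in day 90 libraries, against 14.8, 15.7 and 10.1 FPKM in day 1 libraries. The ages did not overlap, with a log2 fold change of 2.24 ± 0.16 (adjusted p = 2e-06, edgeR). Cathepsin K gene 100136757 stood at 57.9, 62.8 and 57.6 FPKM in day 90 libraries, against 34.4, 32.6 and 24.7 FPKM in day 1 libraries, again without overlap and with a log2 fold change of 1.35 ± 0.13 (adjusted p = 1.4e-05, edgeR). The gene order of assembly USDA_OmykA_1.1 places each cathepsin S gene next to a cathepsin K gene, 110487241 beside 100136757 and 100136261 beside 110514697. All 4 genes of these neighbouring pairs were called higher with both scalings, 110487241 by a log2 fold change of 2.27 ± 0.25 and 110514697 by 1.87 ± 0.14.

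Markers of leukocytes moved in the same direction as these cathepsins. Of 37 leukocyte genes 29 were tested. Called higher were 25 (86.2%, against 32.5% of all tested genes), 19 of them with both scalings, and lower 2 (6.9%, against 35.4%). Of the 29, 6 had passed the filter through day 90 libraries alone and 1 through day 1 libraries alone, so that these had to differ. All 37 had a count at both ages, and their summed level ran from 850 to 996 FPKM at day 90 and from 113 to 149 FPKM at day 1. Much of the sum at day 90 lay in 2 genes of CD74, which chaperones MHC class II molecules, at 505 to 609 FPKM at day 90 and 2.71 to 3.65 FPKM at day 1. The 35 others summed to 344 to 387 FPKM at day 90 and 110 to 146 FPKM at day 1. Mpeg1 (110525246), a perforin of macrophages, averaged 6.79 ± 2.5 FPKM at day 90 and 1.30 ± 0.54 FPKM at day 1. The 10 osteoclast genes had 4 tested, 3 called higher, only 1 of them with both scalings, and none lower. Of all tested genes 32.5% were called higher, and 4 genes are too few to compare with that share. Of the 4, 1 had passed the filter through day 90 libraries alone and so had to differ. The 10 osteoclast genes summed to 9.70 to 13 FPKM at day 90 and 6.98 to 10.1 FPKM at day 1, which overlap. The part of either cell type in the cathepsin levels was not tested.

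Among the other proteases, all 3 cathepsin Z genes and both cathepsin C genes rose with both scalings. Cathepsin C, also called dipeptidyl peptidase 1, activates granule proteases of leukocytes in mammals. The summed level of cathepsin Z genes was 54.5 ± 6.8 FPKM at day 90 and 26.8 ± 2.4 FPKM at day 1, and that of cathepsin C genes 58.2 ± 1.5 FPKM at day 90 and 35.7 ± 6.1 FPKM at day 1. Legumain (110505985), the asparaginyl endopeptidase that matures other cathepsins, averaged 11.8 FPKM at day 90 and 6.13 FPKM at day 1 with a log2 fold change of 1.32 ± 0.10. Tripeptidyl-peptidase 1 (110505207) averaged 10.4 FPKM at day 90 and 6.55 FPKM at day 1 with a log2 fold change of 1.06 ± 0.12. The cathepsin F gene 110504665 was not called with TMM, at 29.6 FPKM at day 90 and 40.9 FPKM at day 1, and was called lower by library size alone with a log2 fold change of -0.48.

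**Figure D3:**
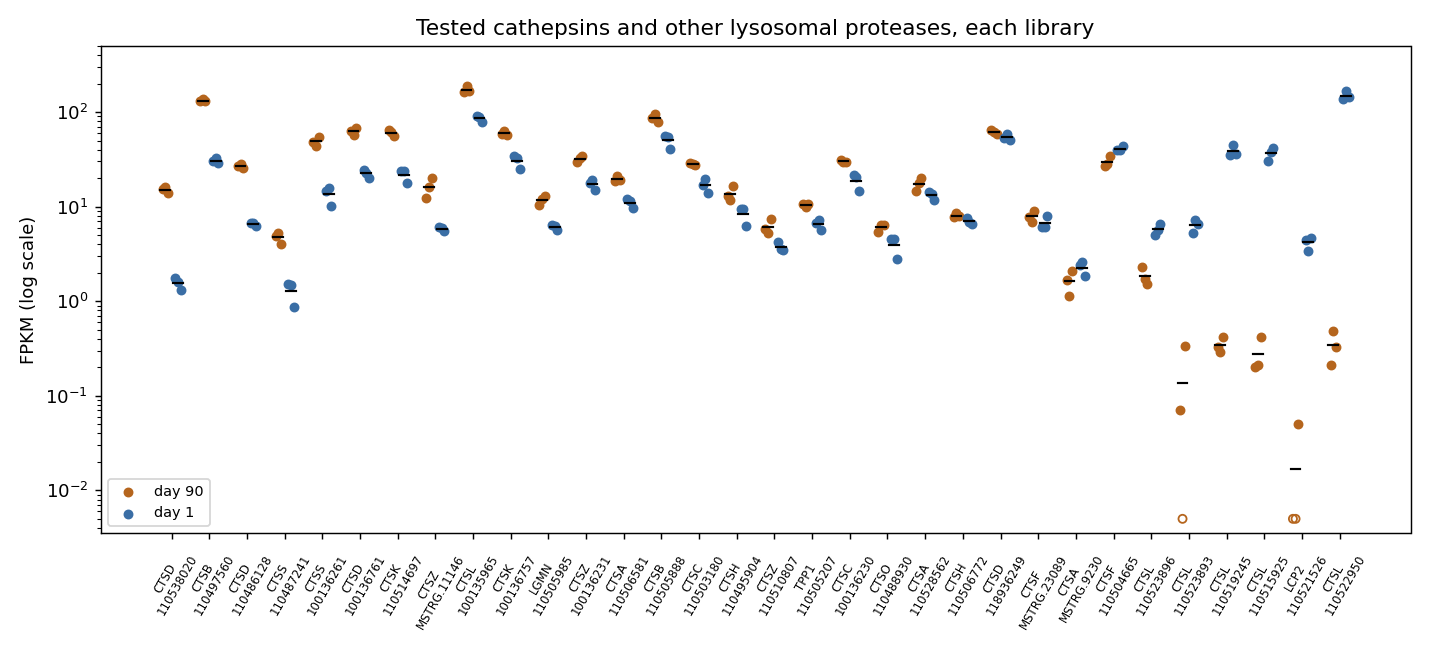
FPKM (log axis) of each tested protease gene in each library, day 90 left and day 1 right, with means as bars; genes are ordered by log2 fold change and open circles at the bottom stand for 0 FPKM. Most genes have all day 90 points above the day 1 points, and at the right end lie cathepsin L-like genes, most of them with day 90 points under 1 FPKM and with day 1 points of up to 166 FPKM.

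The cathepsin L-like genes differed from each other far more than the rest of the proteases. Gene 100135965, the cathepsin La precursor, stood at 161.9, 187.2 and 166.7 FPKM in day 90 libraries, against 91.6, 89.0 and 77.6 FPKM in day 1 libraries. It was the most abundant protease at day 90. Its ages did not overlap, and it rose by a log2 fold change of 1.38 ± 0.12 (adjusted p = 7.1e-06, edgeR). In contrast, 6 other cathepsin L genes that follow one another in the gene order of assembly USDA_OmykA_1.1, with no other gene between them, summed to 3.55, 2.82 and 3.24 FPKM in day 90 libraries, against 214, 262 and 239 FPKM in day 1 libraries. Of these, 5 were tested and all 5 fell with both scalings. All of the 5 but 110523896 had passed the filter through day 1 libraries alone and so had to differ. Gene 110523896 averaged 1.84 FPKM at day 90 and 5.77 FPKM at day 1. The strongest, 110522950, stood at 0.21, 0.49 and 0.33 FPKM in day 90 libraries, against 138.3, 165.9 and 143.9 FPKM in day 1 libraries, with a log2 fold change of -8.31 ± 0.23 (adjusted p = 1.9e-08, edgeR), and was the most abundant protease at day 1. Next came 110515925, at 0.20, 0.21 and 0.42 FPKM in day 90 libraries, against 30.5, 37.9 and 41.6 FPKM in day 1 libraries, with a log2 fold change of -6.69 ± 0.25 (adjusted p = 5.6e-08, edgeR). Another gene named cathepsin L1-like, 110521526, which the deposited table gives the symbol LCP2, had 1 count at day 90 and 276 counts at day 1, a ratio of 200 in normalized counts with an exact 95% interval of 36 to 8000 for counting error.

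The single gene 100135965 held 98.1% of the FPKM under the symbol CTSL at day 90 and 26.6% at day 1, when 110522950 held 46.0%. The annotated spans of 110522950 and of its neighbour 110523893 overlap, and the copies of the run resemble each other by name. The sources used here do not tell how reads matching more than 1 gene were treated, so that the split of reads among near-identical copies is uncertain, here and for every pair of trout duplicates below. The summed level of the run is less exposed to such a split than any gene of it. In zebrafish, a cathepsin L gene is expressed in the hatching gland, which secretes the enzymes that soften the egg envelope. Of 22 hatching enzyme genes 16 had no count at day 90, and their summed level ran from 26.4 to 45.2 FPKM at day 90 and from 318 to 522 FPKM at day 1. All 11 tested ones were called lower, but 10 of them had passed the filter through day 1 libraries alone and so had to differ. The part of hatching gland cells in the fall of the cathepsin L genes was not tested.

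Glycosidases remove sugars from glycoproteins, glycolipids and glycosaminoglycans, and inherited loss of single enzymes causes storage disease in humans. Of 43 glycosidase genes 33 were tested, 29 called higher (20 with both scalings), none lower with either scaling and 4 not called. Their median log2 fold change was 0.84. The share called higher was 87.9%, against 32.5% of all tested genes, and 60.6% with both scalings, against 20.2%. Lower with TMM were 35.4% of all tested genes. Without the filter, 34 of the 43 were higher and 3 lower. Most changes of tested genes were modest, with 10 genes at 2-fold or more. The summed level of all 43 was 256 ± 23 FPKM at day 90 and 161 ± 18 FPKM at day 1.

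Alpha-galactosidase A (GLA), which removes terminal galactose from glycolipids, stood at 2.84, 2.97 and 3.26 FPKM in day 90 libraries, against 1.25, 1.28 and 0.80 FPKM in day 1 libraries. It rose without overlap, by a log2 fold change of 1.86 ± 0.22 (adjusted p = 4.9e-05, edgeR). Lysosomal alpha-mannosidase had both genes called higher, 110494921 with 7.03 FPKM at day 90 and 3.48 FPKM at day 1 (log2 fold change 1.41 ± 0.17) and 110485343 with 9.90 FPKM at day 90 and 7.66 FPKM at day 1 (log2 fold change 0.75 ± 0.10). Lysosomal alpha-glucosidase (GAA), which degrades glycogen, had 6 genes of which 3 were tested and 1 was called, higher with TMM alone.

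Hyaluronidases cut hyaluronan, the long glycosaminoglycan of the skin matrix, and 14 genes of the list bear that name. All 7 tested were called higher, 6 with both scalings, where 32.5% of all tested genes were called higher, 20.2% with both. Summed, the 14 genes were at 56.5 ± 5.2 FPKM at day 90 and 22.9 ± 3.2 FPKM at day 1. The steepest rise among tested lysosome genes was in Hyal5 (110521336, named hyaluronidase PH-20-like), which stood at 11.8, 16.1 and 19.4 FPKM in day 90 libraries, against 0.06 FPKM in each day 1 library. With 1541 counts at day 90 and 6 counts at day 1, its log2 fold change was 8.35 ± 0.28 (adjusted p = 3.5e-08, edgeR). Hyal5, which is among the 7, had passed the filter through day 90 libraries alone and so had to differ. Its neighbour in the gene order, HYAL4 (110521337), stood at 4.70, 5.61 and 7.28 FPKM in day 90 libraries, against 1.03, 1.18 and 1.11 FPKM in day 1 libraries, a log2 fold change of 2.78 ± 0.17 (adjusted p = 7.7e-07, edgeR). In both neighbours the ages were separate. A second run of 3 neighbouring hyaluronidase genes was below the filter in full, and its member Hyal2 (110492793) had no count at day 90 and was at least 49-fold lower there, against a floor of 3 counts over the age. The other hyaluronidases therefore did not all follow the tested ones.

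Sulfatases remove sulfate groups from glycosaminoglycans and sulfolipids, and all of them need activation by the sulfatase-modifying factor SUMF1. Of 12 genes 10 were tested, 7 called higher (5 with both scalings), none lower and 3 not called, with a median log2 fold change of 0.91. Without the filter, 8 of the 12 were higher and 1 lower. Sulfamidase (SGSH), which acts on heparan sulfate, stood at 8.22, 9.34 and 8.20 FPKM in day 90 libraries, against 5.32, 4.95 and 3.72 FPKM in day 1 libraries. The ages did not overlap, with a log2 fold change of 1.27 ± 0.14 (adjusted p = 3.6e-05, edgeR). SUMF1 itself averaged 9.22 FPKM at day 90 and 5.43 FPKM at day 1 (log2 fold change 1.15 ± 0.13), and arylsulfatase B 4.52 FPKM at day 90 and 1.74 FPKM at day 1 (log2 fold change 1.77 ± 0.17). Arylsulfatase A, at 1.58 FPKM at day 90 and 1.99 FPKM at day 1, was not called.

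Lipid-degrading enzymes, their saposin activators, acid phosphatases and nucleases were 27 genes, 23 of them tested. Higher were 17 (15 with both scalings), none was lower with TMM and 4 were lower by library size alone. The median log2 fold change was 1.17. The share called higher was 73.9%, against 32.5% of all tested genes, and 65.2% with both scalings, against 20.2%. Lower with TMM were 35.4% of all tested genes. By library size alone 17.4% were lower, against 50.6%. Prosaposin is the precursor of the saposins, small proteins that present sphingolipids to their hydrolases. The prosaposin gene 110491274 stood at 16.3, 15.3 and 16.9 FPKM in day 90 libraries, against 3.12, 2.39 and 2.31 FPKM in day 1 libraries. The ages were far apart, with a log2 fold change of 3.02 ± 0.13 (adjusted p = 1.3e-07, edgeR); its annotated span overlaps another protein-coding gene. The more abundant copy 110499505 changed less, at 70.9, 67.2 and 68.8 FPKM in day 90 libraries, against 56.7, 59.2 and 45.03 FPKM in day 1 libraries (log2 fold change 0.89 ± 0.11, edgeR adjusted p = 9.3e-05).

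Acid ceramidase (ASAH1, 110534407), which splits ceramide, stood at 11.8, 13.5 and 13.9 FPKM in day 90 libraries, against 6.07, 5.56 and 5.27 FPKM in day 1 libraries. It rose without overlap by a log2 fold change of 1.60 ± 0.10 (adjusted p = 1.2e-06, edgeR). Lysosomal acid lipase had one copy that rose (LIPA 110498985, 31.8 FPKM at day 90 and 14.0 FPKM at day 1, log2 fold change 1.57 ± 0.11) and one that was not called with TMM and lower by library size alone (110491379, 4.65 FPKM at day 90 and 6.28 FPKM at day 1). Both palmitoyl-protein thioesterase 1 genes, which remove fatty acids from proteins, rose, whereas the 2 tested PPT2 genes had log2 fold changes near 0 with TMM and were lower by library size alone. Both deoxyribonuclease 2 genes, which degrade engulfed DNA, rose by log2 fold changes of 1.48 ± 0.23 and 1.25 ± 0.12. Tartrate-resistant acid phosphatase (ACP5), an osteoclast marker in mammals, had 4 genes of which 2 were tested and neither was called with TMM, at a summed 4.71 ± 1.3 FPKM at day 90 and 6.09 ± 0.47 FPKM at day 1.

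Membrane proteins of the lysosome include the heavily glycosylated LAMPs that line it, tetraspanins, cholesterol and amino acid transporters and metal transporters. Of 50 genes 39 were tested, 22 called higher (13 with both scalings), 4 lower (4 with both) and 13 not called. Their median log2 fold change was 0.58. The share called higher was 56.4%, against 32.5% of all tested genes, and the share called lower 10.3%, against 35.4%. With both scalings 33.3% were higher, against 20.2%. Most of the difference in the group's sum lay in CD63, a tetraspanin of late endosomes that takes part in sorting the melanosome protein PMEL in human melanocytes. CD63 gene 110532545 stood at 126.9, 137.2 and 127.7 FPKM in day 90 libraries, against 43.3, 41.4 and 32.5 FPKM in day 1 libraries. Its copy 100136232 stood at 130.3, 144.2 and 129.6 FPKM in day 90 libraries, against 47.0, 42.9 and 37.5 FPKM in day 1 libraries. The copies were nearly equal in level and change at each age and neither overlapped between ages, with log2 fold changes of 2.13 ± 0.13 (adjusted p = 8.5e-07, edgeR) and 2.05 ± 0.12 (adjusted p = 6.5e-07, edgeR). Together they made 265 ± 14 FPKM at day 90 and 81.5 ± 10 FPKM at day 1.

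Melanophore genes went both ways. Of 21 melanophore genes 19 were tested, 13 called higher (68.4%, against 32.5% of all tested genes) and 6 lower (31.6%, against 35.4%). Of the 19, 5 had passed the filter through day 1 libraries alone and 1 through day 90 libraries alone, so that these had to differ. Of the 21, 3 had no count at day 90, and the 21 summed to 660 to 747 FPKM at day 90 and 172 to 186 FPKM at day 1. The part of melanophores in the level of CD63 was not tested. Macrosialin (110500783), the LAMP-like protein CD68 of macrophages, stood at 38.8, 45.4 and 55.5 FPKM in day 90 libraries, against 26.4, 24.6 and 24.0 FPKM in day 1 libraries. It rose without overlap by a log2 fold change of 1.27 ± 0.13 (adjusted p = 1.7e-05, edgeR), in the direction of the leukocyte genes given above.

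LAMP1 had 4 tested copies that went different ways. The copy 110513718 stood at 18.8, 18.0 and 16.3 FPKM in day 90 libraries, against 10.7 FPKM in each day 1 library, and rose by a log2 fold change of 1.11 ± 0.12 (adjusted p = 2.3e-05, edgeR). The copy 110501332 stood at 7.33, 7.05 and 5.21 FPKM in day 90 libraries, against 10.7, 12.02 and 12.4 FPKM in day 1 libraries. Its ages were separate as well, in the opposite direction, with a log2 fold change of -0.45 ± 0.16 (adjusted p = 0.034, edgeR). That call was lost without day 1 replicate 2 (adjusted p = 0.082, edgeR) or replicate 3 (adjusted p = 0.11, edgeR). LAMP2, which also serves autophagy, had overlapping FPKM of 19.4, 21.3 and 24.3 in day 90 libraries, against 22.7, 22.4 and 19.8 in day 1 libraries, but 7113 counts at day 90 and 5810 counts at day 1. It was called higher on counts with both scalings (log2 fold change 0.74 ± 0.12 with TMM, edgeR adjusted p = 0.00035) and showed no difference on log2(FPKM + 1) with limma (adjusted p = 0.98), so that no direction is given for it. Of 196 lysosome genes with enough reads to compare (at least 50 counts and 1 FPKM in every library), LAMP2 was the one whose deposited FPKM did not follow count over library total, that ratio to FPKM differing between the ages by 0.36 on the log2 scale against a limit of 0.2; the reason is not known.

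The cholesterol carrier NPC2, a soluble protein that hands cholesterol to NPC1 and is placed among the membrane proteins by name, stood at 79.4, 89.6 and 91.8 FPKM in day 90 libraries, against 71.0, 78.0 and 70.7 FPKM in day 1 libraries. These levels are close, and its log2 fold change of 0.63 ± 0.10 (adjusted p = 0.00042, edgeR) was not called by library size alone. The 4 lower genes were LAMP1 110501332, both tested Slc11a2 genes and an ABCA2 gene. Slc11a2, the iron and manganese transporter of endosomes also called DMT1, was represented by gene 100135868 at 4.06, 5.18 and 4.62 FPKM in day 90 libraries, against 10.8, 9.62 and 6.51 FPKM in day 1 libraries. It fell without overlap by 0.56 on the log2 scale (SE 0.18, edgeR adjusted p = 0.020), and the call was lost without day 1 replicate 1 (adjusted p = 0.089, edgeR) or replicate 2 (adjusted p = 0.069, edgeR). ABCA2 (110536359), a lipid transporter of brain in mammals, averaged 0.0933 FPKM at day 90 and 1.23 FPKM at day 1, with a log2 fold change of -3.32 ± 0.19. This gene had passed the filter through day 1 libraries alone and so had to differ. SCARB2, a membrane protein of lysosomes also called LIMP-2, had 5 tested genes by symbol, of which 2 rose with both scalings. Among the 5, gene 100136247 bears the product name CD36 antigen instead, and it was not called with TMM. Gene 110523977 averaged 4.76 FPKM at day 90 and 0.167 FPKM at day 1. It had passed the filter through day 90 libraries alone and so had to differ, and its annotated span overlaps another protein-coding gene. The assembled locus MSTRG.18412 averaged 23.3 FPKM at day 90 and 9.83 FPKM at day 1.

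The V-type proton pump consists of a membrane sector, V0, that passes protons and a cytosolic sector, V1, that splits ATP, and the lysosome list holds V0 subunits, the accessory subunit ATP6AP1 and subunit H of V1. Of 26 genes 24 were tested, and they were nearly balanced, 11 higher (8 with both scalings), 10 lower (10 with both) and 3 not called. The share called higher was 45.8%, against 32.5% of all tested genes. The share called lower was 41.7%, against 35.4% of all tested genes, and in the other groups it was below 35.4%. Of the lower genes, 110491694, 110532877, 110523699 and 110509909 had passed the filter through day 1 libraries alone and so had to differ. The median log2 fold change of the 24 was 0.32 with TMM and -0.08 by library size alone, so that the group as such has no direction free of the scaling.

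The genes of the large a subunit of V0, which decides where the pump is placed, differed between isoforms and within them. Isoforms are taken from the symbols, since the product names give subunit a without a number. Atp6v0a1, the isoform dominant in neurons of mammals, fell in its leading gene 110491694, which stood at 0.17, 0.22 and 0.14 FPKM in day 90 libraries, against 15.1, 14.9 and 16.97 FPKM in day 1 libraries. That gene was low in every day 90 library, with a log2 fold change of -6.11 ± 0.18 (adjusted p = 2.2e-08, edgeR). The other tested a1 genes differed little, 110486264 averaging 4.42 FPKM at day 90 and 4.76 FPKM at day 1 and 110538197 averaging 3.41 FPKM at day 90 and 3.27 FPKM at day 1, so that the share of 110491694 among ATP6V0A1 genes was 2.21% at day 90 and 66.0% at day 1. The a2 isoform split likewise, with 110523699 at 0.0367 FPKM at day 90 and 3.98 FPKM at day 1. In contrast, 110536098 rose and averaged 4.41 FPKM at day 90 and 3.29 FPKM at day 1. Genes 110491694 and 110523699 had passed the filter through day 1 libraries alone and so had to differ. The a3 isoform, TCIRG1, needed by osteoclasts to acidify bone in mammals, rose in all 3 genes with both scalings. Its leading gene 110504437 stood at 6.31, 6.23 and 7.18 FPKM in day 90 libraries, against 3.36, 3.92 and 2.82 FPKM in day 1 libraries, with a log2 fold change of 1.35 ± 0.13 (adjusted p = 1.5e-05, edgeR). The 3 TCIRG1 genes summed to 13.3 ± 0.29 FPKM at day 90 and 7.51 ± 0.23 FPKM at day 1, and the 4 ATP6V0A1 genes to 8.0 ± 0.60 FPKM at day 90 and 23.8 ± 0.75 FPKM at day 1.

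The proteolipid ring subunit c, ATP6V0C, was the most abundant subunit. Its gene 100301811 stood at 32.3, 36.4 and 41.9 FPKM in day 90 libraries, against 78.7, 73.7 and 70.6 FPKM in day 1 libraries, and fell without overlap by 0.63 on the log2 scale (SE 0.10, edgeR adjusted p = 0.00043). The copy 110537888 stood at 32.8, 36.2 and 30.2 FPKM in day 90 libraries, against 32.6, 31.3 and 33.8 FPKM in day 1 libraries. These overlap, and its call as higher with TMM (log2 fold change 0.41 ± 0.12, edgeR adjusted p = 0.013) was lost by library size alone, where the value was 0.01, and without replicate 2 of either age (edgeR adjusted p = 0.068 without that of day 90 and 0.063 without that of day 1). Both ATP6V0B genes, the related c'' subunit, fell with both scalings, to a summed 22.0 ± 3.2 FPKM at day 90 against 37.5 ± 1.5 FPKM at day 1.

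Subunit d1, which links the ring to the stalk, changed its leading copy. Gene 118944433 stood at 15.8, 12.4 and 11.4 FPKM in day 90 libraries, against 8.82, 3.09 and 6.34 FPKM in day 1 libraries (log2 fold change 1.51 ± 0.32, edgeR adjusted p = 0.0023). Gene 110512666 stood at 4.62, 9.34 and 9.33 FPKM in day 90 libraries, against 21.3, 25.4 and 20.5 FPKM in day 1 libraries (log2 fold change -1.16 ± 0.22, edgeR adjusted p = 0.0010). The ages did not overlap in either gene, and their sum with the third d1 gene was 21.0 ± 0.69 FPKM at day 90 and 28.5 ± 1.6 FPKM at day 1, with a smaller SD than either copy has alone. The accessory subunit ATP6AP1 split into 2 genes that rose and 2 that fell, all with both scalings. The lowest, 110532877, stood at 0.20, 0.19 and 0.17 FPKM in day 90 libraries, against 7.69, 7.98 and 9.03 FPKM in day 1 libraries, with a log2 fold change of -5.04 ± 0.23 (adjusted p = 1.5e-07, edgeR). It had passed the filter through day 1 libraries alone and so had to differ, and its annotated span overlaps non-coding genes. The leading one, 110492046, averaged 19.5 FPKM at day 90 and 11 FPKM at day 1 with a log2 fold change of 1.21 ± 0.10.

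**Figure D4:**
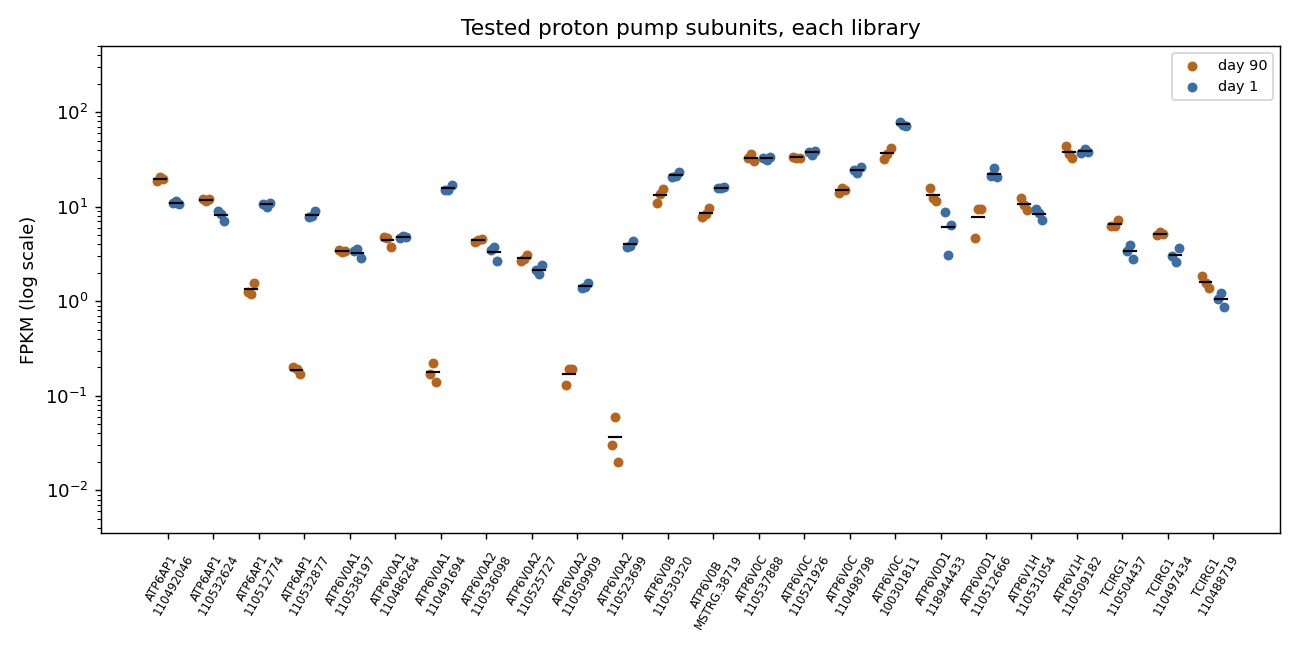
FPKM (log axis) of each tested proton pump gene in each library, day 90 left and day 1 right, with means as bars, ordered by symbol. Genes of ATP6AP1, ATP6V0A1 and ATP6V0A2 with day 90 points under 2 FPKM stand beside copies of the same subunit that kept several FPKM, and the 3 TCIRG1 genes have day 90 points above their day 1 points.

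The subunits of V1 lie outside the lysosome entry apart from subunit H, and 18 of their genes were looked up by symbol. All 18 were tested, 1 called higher (5.56%, against 32.5% of all tested genes) and 10 lower (55.6%, against 35.4%), the same numbers with both scalings. Of the 18, 1 had passed the filter through day 1 libraries alone and so had to differ. The median log2 fold change of the 18 was -0.50, and they summed to 315 to 333 FPKM at day 90 and 467 to 486 FPKM at day 1. The FPKM sum of the pump's lysosome members, scaled by library size like that of the 18, was lower at day 90 too. Of 47 neural genes 35 were tested, 1 called higher (2.86%, against 32.5% of all tested genes) and 30 lower (85.7%, against 35.4%). Of the 47, 7 had no count at day 90, and the 47 summed to 296 to 325 FPKM at day 90 and 1070 to 1210 FPKM at day 1. Of the 35, 25 had passed the filter through day 1 libraries alone and so had to differ. The sum of the neural genes moved in the direction of the low a1, a2 and ATP6AP1 genes and of ABCA2, and the part of neural cells in these values was not tested.

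Sorting, coat and adaptor proteins were the largest group, 91 genes of which 75 were tested. Higher were 39 (23 with both scalings), lower 15 (15 with both, and 24 by library size alone) and 21 were not called. The median log2 fold change was 0.40 with TMM and -0.01 by library size alone. The receptors that bind mannose-6-phosphate differed little: both M6PR genes were called higher with TMM, 1 of them (110537283, 11.6 FPKM at day 90 and 9.08 FPKM at day 1) with both scalings, and neither IGF2R gene was higher with both. Sortilin's leading gene 110492692 averaged 13.3 FPKM at day 90 and 9.52 FPKM at day 1 (log2 fold change 0.86), and its copy 110528030 averaged 1.90 FPKM at day 90 and 4.20 FPKM at day 1 (log2 fold change -0.75), both called with both scalings.

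AP-3, the adaptor that sends cargo to lysosomes and melanosomes, is a complex of a delta, a beta, a mu and a sigma subunit, and all 12 of its genes were tested. Higher were 7 (4 with both scalings), lower 3 (3 with both) and not called 2, where 32.5% of all tested genes were called higher and 35.4% lower. AP3B1, the ubiquitous beta subunit whose loss causes Hermansky-Pudlak syndrome with pale skin in humans, stood in gene 110509669 at 8.56, 8.21 and 7.43 FPKM in day 90 libraries, against 5.10, 4.97 and 3.64 FPKM in day 1 libraries. It rose without overlap by a log2 fold change of 1.21 ± 0.14 (adjusted p = 5.4e-05, edgeR). Ap3b2, the neuronal beta subunit in mammals, stood at 0.75, 0.57 and 0.48 FPKM in day 90 libraries, against 8.16, 8.31 and 9.21 FPKM in day 1 libraries. It was low in every day 90 library, with a log2 fold change of -3.41 ± 0.17 (adjusted p = 2.9e-07, edgeR). Ap3b2 had passed the filter through day 1 libraries alone and so had to differ.

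The mu subunits are likewise a ubiquitous and a neuronal form, and the AP3M1 gene rose while 1 of 2 AP3M2 genes fell. AP3M1, the ubiquitous form, stood at 12.3, 14.8 and 12.1 FPKM in day 90 libraries, against 5.89, 6.30 and 4.65 FPKM in day 1 libraries, a rise of 1.63 ± 0.14 on the log2 scale (adjusted p = 5.7e-06, edgeR). AP3M2, the form of neurons in mammals, stood in gene 110536244 at 6.01, 7.22 and 7.76 FPKM in day 90 libraries, against 14.9, 14.3 and 14.1 FPKM in day 1 libraries, with a log2 fold change of -0.67 ± 0.10 (adjusted p = 0.00023, edgeR). The ages did not overlap in either, and the other AP3M2 gene, 110525861, was not called at 7.42 FPKM at day 90 and 7.43 FPKM at day 1 (log2 fold change 0.40). The delta subunit AP3D1, shared by both forms of the complex, was close to level in gene 110524334, at 9.17, 9.37 and 9.67 FPKM in day 90 libraries, against 9.55, 8.93 and 8.70 FPKM in day 1 libraries. Its call as higher with TMM (log2 fold change 0.45 ± 0.10, edgeR adjusted p = 0.0024) was lost by library size alone.

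Of the sigma subunits, AP3S1 gene 100305255 stood at 12.8, 19.01 and 22.1 FPKM in day 90 libraries, against 23.5, 23.3 and 20.2 FPKM in day 1 libraries, overlapped and was not called (adjusted p = 0.88, edgeR). AP3S2 gene 118965014 stood at 2.55, 2.0 and 1.66 FPKM in day 90 libraries, against 6.36, 6.39 and 4.45 FPKM in day 1 libraries, and fell by 1.07 on the log2 scale (SE 0.25, edgeR adjusted p = 0.0039). The other copy of each was called higher. AP3S1 110525261 averaged 19.5 FPKM at day 90 and 15.0 FPKM at day 1 (log2 fold change 0.76 ± 0.10, edgeR adjusted p = 0.00013), with both scalings. AP3S2 110518866 averaged 3.47 FPKM at day 90 and 3.09 FPKM at day 1 (log2 fold change 0.56 ± 0.22, edgeR adjusted p = 0.045), with TMM alone. The spans of AP3D1 110524334 and AP3S2 118965014 overlap other annotated genes. As a whole the AP-3 genes summed to 102 ± 6.6 FPKM at day 90 and 109 ± 8.4 FPKM at day 1. The part of melanophores, leukocytes and neural cells, whose genes are given above, in the levels of AP-3 subunits was not tested.

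**Figure D5:**
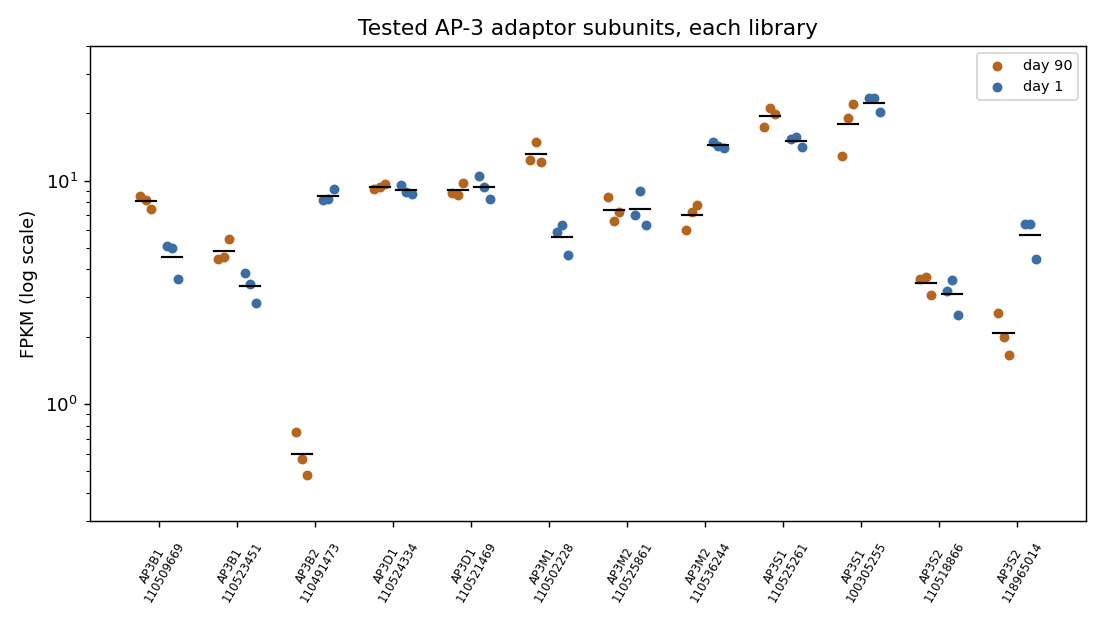
FPKM (log axis) of each AP-3 adaptor gene in each library, day 90 left and day 1 right, with means as bars. AP3B1, AP3M1 and AP3S1 110525261 have day 90 points above their day 1 points, AP3B2, AP3S2 118965014 and an AP3M2 gene below, and AP3D1 and AP3S1 100305255 overlap.

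AP-1, the adaptor of the Golgi and of endosomes, had 17 tested genes of 21. Called higher were 8 (3 with both scalings), lower 5 (5 with both) and 4 not called, against 32.5% higher and 35.4% lower of all tested genes. AP1S2 gene 110524909, a sigma subunit, stood at 1.58, 1.11 and 1.35 FPKM in day 90 libraries, against 5.35, 6.41 and 5.49 FPKM in day 1 libraries. It fell without overlap by 1.71 on the log2 scale (SE 0.22, edgeR adjusted p = 9.4e-05). GGA proteins are monomeric adaptors that recognise the mannose-6-phosphate receptors. Both genes with the symbol GGA2, which the deposited product names call GGA3-like, rose with both scalings to a summed 17.4 ± 0.13 FPKM at day 90 against 5.49 ± 0.95 FPKM at day 1. The genes with the symbol GGA3 summed to 8.41 ± 0.37 FPKM at day 90 and 14.0 ± 0.40 FPKM at day 1, with 1 of 4 called lower with TMM and all 4 by library size alone.

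Clathrin, the coat itself, showed copies in opposite directions. The light chain CLTA was led by 110497422, the most abundant gene of the group, at 47.1, 50.6 and 41.5 FPKM in day 90 libraries, against 30.8, 36.6 and 33.5 FPKM in day 1 libraries (log2 fold change 0.82 ± 0.13, edgeR adjusted p = 0.00035). The assembled locus MSTRG.16267, also a light chain A by name, stood at 1.51, 0.56 and 0.44 FPKM in day 90 libraries, against 2.22, 2.73 and 2.85 FPKM in day 1 libraries (log2 fold change -1.21 ± 0.43, edgeR adjusted p = 0.031). The ages did not overlap in either, but the call of the locus was lost in 4 of the 6 fits that left out a library, with edgeR adjusted p of 0.075 and 0.086 without replicates 2 and 3 of day 1 and 0.094 and 0.077 without replicates 2 and 3 of day 90. Of the heavy chain CLTC, gene 110537481 averaged 25.3 ± 2.1 FPKM at day 90 and 19 ± 1.2 FPKM at day 1 (log2 fold change 0.80 ± 0.13, edgeR adjusted p = 0.00040), and the assembled locus MSTRG.35422 averaged 3.99 ± 0.35 FPKM at day 90 and 9.43 ± 0.88 FPKM at day 1 (log2 fold change -0.86 ± 0.11, edgeR adjusted p = 8.3e-05). Summed, the 6 heavy chain genes were at 62.4 ± 2.4 FPKM at day 90 and 66.3 ± 3.2 FPKM at day 1.

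LITAF proteins, small membrane-bound proteins of late endosomes, had 18 genes by symbol or product name. Of these 10 were tested, 6 called higher (5 with both scalings) and none lower with TMM. Of the higher genes, 110516790 and 110519358 had passed the filter through day 90 libraries alone and so had to differ. Of all tested genes 32.5% were higher and 35.4% lower. LITAF gene 110516790 stood at 7.17, 5.57 and 7.70 FPKM in day 90 libraries, against 0.26, 0.28 and 0.49 FPKM in day 1 libraries, a log2 fold change of 4.63 ± 0.30 (adjusted p = 1.1e-06, edgeR). Gene 110495052, named LITAF homolog without a symbol, stood at 4.22, 6.63 and 7.37 FPKM in day 90 libraries, against 0, 0.99 and 1.12 FPKM in day 1 libraries (log2 fold change 3.47 ± 0.59, edgeR adjusted p = 0.00059). Both were high in all day 90 libraries without overlap. The second of them lies in a cluster of LITAF genes whose annotated spans overlap one another, so that its reads may be shared.

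Trout carry many duplicated genes, and 81 of the 118 symbols of the list had 2 or more genes, 70 of them 2 or more tested ones. All tested copies were called higher for 29 of these symbols and lower for 2, where 32.5% of all tested genes were called higher and 35.4% lower. No such count over the other duplicated symbols of the table is given here. This count and those below therefore describe the list alone. Copies in opposite directions, at least 1 called higher and 1 lower, were found for 13: CTSL, LAMP1, SORT1, AP1G1, AP1S2, AP3S2, CLTA, CLTC, ATP6AP1, ATP6V0A1, ATP6V0A2, ATP6V0C and ATP6V0D1. With both scalings 10 of the 13 had such copies, the exceptions being AP3S2, ATP6V0A1 and ATP6V0C, in which no copy was called higher with both. None of the 13 is a glycosidase, sulfatase or lipid enzyme, groups in which no tested gene was called lower with TMM. That absence depends on the filter, since without it 3 glycosidases and 1 sulfatase were called lower. HYAL2, with all 4 tested genes higher, also holds the untested gene 110492793, with 198 counts at day 1 and none at day 90. The copy with the highest mean FPKM was not the same at both ages for 21 symbols. In AP1G1, for example, gene 110508475 held 40.4% of the symbol's FPKM at day 90 and 26.8% at day 1, while the summed level was 30.0 ± 4.0 FPKM at day 90 and 32.3 ± 1.1 FPKM at day 1.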

How the data were processed

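Per the labels' protocols, total RNA was extracted with Trizol from flash-frozen dorsal skin, and libraries followed standard Illumina procedures. Bowtie2 2.2.8 and TopHat2 2.1.1 are named in the submitters' processing notes, without a role. Per the file headers, the authors deposited for each gene and library a read count, as whole numbers, and an FPKM value, and for each gene a log2 ratio of the ages, day 90 on top, with an FDR (an adjusted p-value). The counting tool, the build, the filters and the treatment of multi-mapping reads and strand were not stated, so no coordinates are printed.

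Counts were fitted with edgeR 4.0.16 (R 4.3.3; glmQLFit and glmQLFTest, TMM factors, age as the one term, two-sided). Genes were tested with FPKM of 1 or more in 3 or more libraries, and Benjamini-Hochberg adjustment ran over all 29436 of them with a threshold of 0.05. Standard errors are the log2 fold change over the square root of F. A fold against an age without counts is a bound, taken against a floor of 3 counts over the age, and a ratio against 1 to 3 counts has an exact 95% binomial interval. Both cover counting error only. Levels are means ± SD of deposited FPKM over the 3 libraries. Deposited FPKM followed count over library total within 0.2 (log2, between ages) for all but 107 of 19152 genes compared, whereas edgeR values are scaled by TMM, whose factors ran from 0.823 to 0.913 at day 90 and from 1.11 to 1.17 at day 1.

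Groups follow the product name, and the symbol where the name gave no match. Product names come from best matches, 194 of the 292 to rainbow trout. The phosphodiesterase NAGPA was placed with sorting proteins although its name also matches a glycosidase pattern, the AGA and galactocerebrosidase genes were added to the glycosidases, and 3 genes (an SPX-domain protein, a sec31-like protein and an unnamed locus) fit no group. The named genes were, per group, up to 2 called higher and up to 2 called lower with the largest change among genes averaging at least 5 FPKM at an age, and the most abundant gene. Added to these were fixed lysosomal genes (cathepsins B, D, K, L and S, LAMP1, LAMP2, CD63, macrosialin, NPC2, GLA, TCIRG1, others, and AP-3 subunits) at their most abundant copy, and up to 5 pairs of copies in opposite directions. Some genes that this rule takes are not reported here. Other genes named in the text were chosen after their values were seen. The members, the gene lists and the tests were chosen with earlier results of these data known, and the neural, hatching enzyme and V1 lists were added later still.

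Alternatives were library size alone, upper quartile factors, no filter, an FPKM minimum of 5, a replicate block, leaving out each library, DESeq2 1.42.0, limma 3.58.1 on log2(FPKM + 1) and log2(FPKM + 0.1), rows with a rainbow trout product name, and leaving out cathepsin L copies, the last chosen after seeing the data. The edgeR fit was also run on simulated counts, with few changed genes, balanced between directions, and the same dispersion for every gene. That setting holds no shift between the scalings, so that it does not bear on the choice of scaling. Gene order and overlap of spans come from RefSeq's gene list of assembly USDA_OmykA_1.1, in which were found all 272 NCBI-numbered members, 265 of them placed on a chromosome. Of these 265, 56 overlap another annotated gene.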

Additional observations from a re-analysis of the deposited data

How the results depend on the processing

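Over 14 alternatives, the 48 named genes gave 667 values, of which 641 kept direction and side of the threshold, 24 kept the direction and lost the call, and 2 turned, both LAMP2 (-0.0024 with limma on log2(FPKM + 1) and -0.0026 on log2(FPKM + 0.1), neither called). Of the lost calls, 4 were by library size alone, where ctsd 118936249, npc2, AP3D1 110524334 and ATP6V0C 110537888 stood at 0.17, 0.24, 0.05 and 0.01. Lysosome genes called higher, 150, were 94 with an FPKM minimum of 5, a filter that tests fewer genes. Those called lower, 35, were 54 by library size alone, 53 with limma on log2(FPKM + 1) and 20 among rows with a rainbow trout product name. All genes called higher, 9565, were 5941 by library size alone, 4706 with an FPKM minimum of 5, and 6084 and 5989 with limma at pseudocounts of 1 and 0.1, and those called lower, 10417, were 5036 with an FPKM minimum of 5. Leaving out a library gave 140 to 150 lysosome genes higher and 28 to 38 lower.

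The distance of a median log2 fold change from that of all tested genes moved beyond the spread of libraries as follows, and the cause was not tested. Without a filter it was 0.78 for lysosome genes (against 0.72), 1.25 for proteases (1.13), 1.04 for glycosidases (0.87), 1.10 for sulfatases (0.95), 1.38 for lipid enzymes (1.2), 0.48 for membrane proteins (0.62) and 0.55 for sorting and coats (0.43). With an FPKM minimum of 5 it was 0.63 for lysosome genes, 0.98 for proteases, 0.69 for glycosidases, 1.14 for sulfatases and 0.28 for sorting and coats, and turned to -0.17 for the proton pump (0.36). With limma on log2(FPKM + 1) it was 0.55 for lysosome genes, 0.99 for proteases, 0.70 for glycosidases, 0.76 for sulfatases, 1.04 for lipid enzymes, 0.45 for membrane proteins and 0.33 for sorting and coats. Sulfatases, with 10 tested genes, stood at 1.13 with limma on log2(FPKM + 0.1) and 1.18 with rainbow trout product names. Leaving out a library gave 0.67 to 0.73 for lysosome genes and 0.92 to 1.11 for sulfatases.

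With the replicate block, 147 lysosome genes were higher and 30 lower, and the distance for sulfatases was 1.16. Same-numbered libraries of the ages correlated at -0.067, 0.00667 and -0.0881 in their deviations from the mean of the age. These values show no pairing by number. With 3 libraries per age they cannot exclude one. The block cost the calls of LAMP1 110501332 and MSTRG.16267. In the authors' deposited table, 205 lysosome genes had an FDR under 0.05, 157 higher and 48 lower, and 179 of them were also called by edgeR, 174 in the same direction. With 3 libraries per age, changes near the spread between libraries may have gone uncalled, and the 53 lysosome genes below the filter were not tested.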
